A study of Mus musculus with 6 samples.

Results

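Expression of 10 genes of the acrosome and of egg binding (Acrv1, Spaca1, Zpbp, Zpbp2, Acr, Spam1, Acrbp, Spaca3, Izumo1 and Dkkl1) was read in mouse cells sorted as elongating spermatids on Affymetrix 3' arrays. The members were all probe sets that the platform annotation gives to exactly 1 of these symbols, which made 14 of the 45101 probe sets on the array and 10 of the 18194 genes that have such a probe set. A further probe set, annotated to Acrbp together with Ing4, was left out. Of the 14, 12 passed the filter on low signals, against 27022 of all probe sets. The passing probe sets cover all 10 genes.

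The acrosome is a secretory vesicle that forms from the Golgi in round spermatids and flattens over the condensing nucleus in elongating spermatids. It stores proteases, a hyaluronidase and matrix proteins that are released when the sperm meets the egg coat, and its membranes carry proteins that bind the zona pellucida and the egg. Many of its genes are transcribed after meiosis, before the nucleus is silenced, and their mRNAs persist into the elongating stage.

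All groups were wild-type ICR mice, an outbred strain, given GFP-expressing lentiviral vectors into the testis at an age of 5 weeks. GFP-positive elongating spermatids were sorted from total germ cells 1 week later. The vectors expressed an shRNA to Miwi (shMiwi) or to Caf1 (shCaf1), or were the pSilencer vector (control), with 2 arrays per group labelled as biological replicates. Miwi is the mouse PIWI protein Piwil1, and Caf1 was read as Cnot7, a subunit of the CCR4-NOT deadenylase. The labels do not say how many mice an array stands for or whether replicates came from separate mice, so p-values measure only the spread between these arrays. The comparison of shMiwi with shCaf1 asks how spermatids differ when one or the other factor is targeted, and each is also set against control.

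Both control arrays differed from the shRNA arrays. Relative to the shRNA average, the added hybridization control RNAs read 0.941 and 0.806 in shMiwi and 1.10 and 1.2 in shCaf1, against 82.3 and 16.2 in control. Pearson's r across the tested probe sets, which are not independent replicates, was 0.982 within shMiwi, 0.983 within shCaf1 and 0.451 within control. Piwil1 read 9780 and 10392 on the shMiwi arrays, against 21881 and 22442 on the shCaf1 arrays, a log2 difference of -1.14 (SE 0.09, limma adjusted p = 0.00105, or 0.133 without an intensity trend). Cnot7 read 4365 and 5012 on the shMiwi arrays, against 3633 and 4330 on the shCaf1 arrays, a log2 difference of 0.24 (SE 0.13, limma adjusted p = 0.307). The Cnot7 probe set is of a kind whose probes may also match other transcripts. Each targeted gene was read on its brightest probe set over all 6 arrays, control included. On the control arrays Piwil1 read 1445360 and 292542 and Cnot7 2003570 and 188877. On the deposited scale both were called lower than control (limma adjusted p between 0.00675 and 0.0111). The log2 differences were -6.01 in shMiwi and -4.87 in shCaf1 for Piwil1, and -7.03 and -7.27 for Cnot7. Neither gene differed from control past the threshold on the hybridization scale described next (limma adjusted p between 0.154 and 0.955). Between shMiwi and shCaf1 that scale put Piwil1 at -0.74 (limma adjusted p = 0.00106) and Cnot7 at 0.63 (adjusted p = 0.0137). The elongating spermatid marker list had a median percentile within the array of 98.7 and 98.5 in shMiwi, 99.5 and 99.5 in shCaf1, and 40.9 and 99.2 in control. On control 1 the markers that define the labelled cells were split, from percentile 1.55 (Tnp2) to 96.1 (Prm1). Because of this, the members' signals are given for each control array, and their differences from control also on a scale in which arrays are matched on the hybridization controls (the hybridization scale).

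Spaca1, Zpbp and Zpbp2, which act in acrosome assembly, were bright on the shRNA arrays. Spaca1, an acrosomal membrane protein needed in mice to shape the acrosome, had a signal of 8780 and 9956 in shMiwi, 10754 and 10880 in shCaf1, and 30.2 and 448 in control. Zpbp, a zona pellucida-binding protein of the acrosomal matrix, had 13142 and 12439 in shMiwi, 13349 and 13010 in shCaf1, and 67.0 and 522 in control. Its relative Zpbp2 had 6998 and 6973 in shMiwi, 7173 and 6818 in shCaf1, and 78.8 and 567 in control. For these 3 genes all 4 shRNA arrays lay above both control arrays, and for Zpbp and Zpbp2 the shMiwi and shCaf1 arrays overlapped on the deposited scale. Within the array they stood between percentiles 97.6 and 99.6 of all signals on the shRNA arrays, between 5.89 and 22.5 on control 1 and between 71.9 and 77.9 on control 2. A second probe set each for Zpbp and Zpbp2 stayed dim, with at most 60.8 and 34.4 on the shRNA arrays, and did not pass the filter. These dim probe sets read 67.4 and 88.2 (Zpbp) and 440 and 17.0 (Zpbp2) on the control arrays.

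Among the contents of the acrosomal matrix, Acrv1, the matrix antigen SP-10, had a signal of 12073 and 12388 in shMiwi, 15591 and 17278 in shCaf1, and 75.7 and 666 in control. Dkkl1, a Dickkopf-like glycoprotein of the acrosome, had 12234 and 11458 in shMiwi, 13741 and 15119 in shCaf1, and 134 and 9036 in control. On the deposited scale both genes were higher in every shCaf1 array than in every shMiwi array. Matched on the hybridization controls, the Acrv1 arrays overlapped (12828 and 15369 in shMiwi, 14198 and 14393 in shCaf1). Dkkl1 then read higher in shMiwi (12999 and 14215, against 12513 and 12595 in shCaf1). The Dkkl1 signal of control 2 lay at percentile 98.1 of its array, near those of the shRNA arrays. Acr, the serine protease acrosin, had 1164 and 788 in shMiwi, 1119 and 913 in shCaf1, and 1483 and 2054 in control. Acrbp, which binds the acrosin precursor, had 3544 and 2832 in shMiwi, 4178 and 4580 in shCaf1, and 240 and 1973 in control on its brighter probe set. On the other Acrbp probe set it had 2122 and 1829 in shMiwi, 2401 and 2636 in shCaf1, and 811 and 861 in control. Acr thus read highest on the control arrays on the deposited scale, while with arrays matched on the hybridization controls it read lowest there, at 1237 and 978 in shMiwi, 1019 and 761 in shCaf1, and 18.0 and 127 in control. Both Acrbp probe sets read lowest on the control arrays.

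Of the members that meet the egg coat or the egg, Spam1, the sperm hyaluronidase PH-20, had a signal of 1069 and 1325 in shMiwi, 1313 and 1213 in shCaf1, and 740 and 65.1 in control. Spaca3, a lysozyme-like acrosomal protein, had 4507 and 4670 in shMiwi, 6548 and 6628 in shCaf1, and 57.2 and 8117 in control. Izumo1, the sperm surface protein that binds the egg receptor Juno in gamete fusion, had 3915 and 4163 in shMiwi, 6260 and 6028 in shCaf1, and 42.8 and 379 in control. On the deposited scale Spaca3 and Izumo1 were lower in both shMiwi arrays than in both shCaf1 arrays, while matched on the hybridization controls these arrays overlapped. Spaca3 on control 2 read above all shRNA arrays on the deposited scale. When matched it read below them (4788 to 5963 on the shRNA arrays, against 500.05 on control 2). A second Spaca3 probe set, of the kind whose probes may also match other transcripts, was dim, with 82.0 and 30.7 in shMiwi, 50.2 and 58.6 in shCaf1, and 349 and 409 in control. The 2 Spaca3 probe sets therefore disagreed, and the brighter one stands for the gene below.

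**Figure D1:**
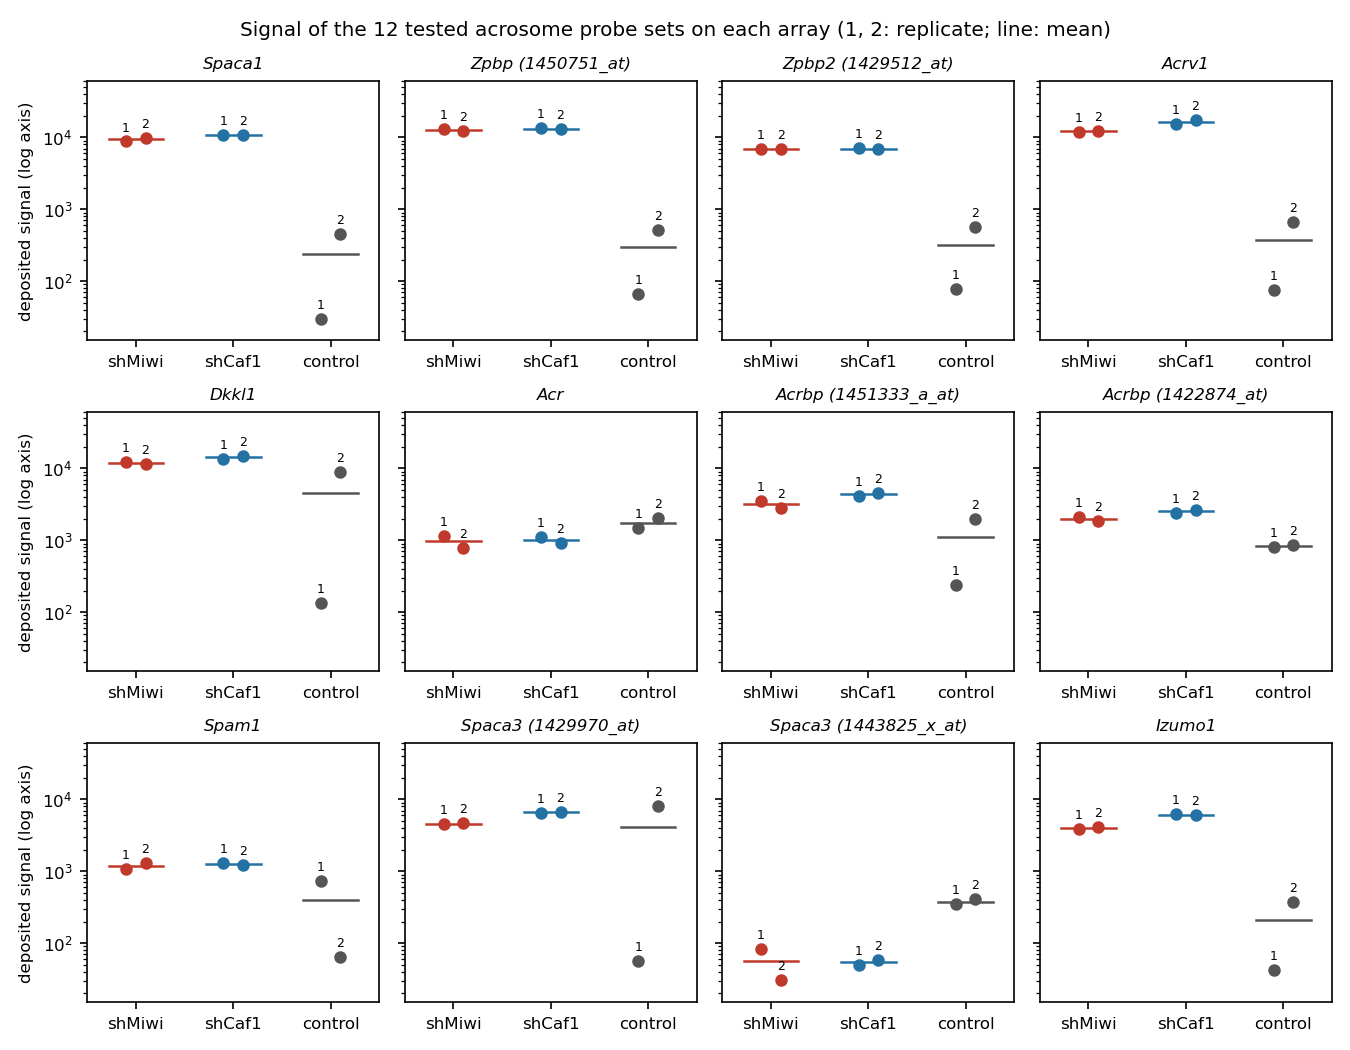
Deposited signal (log axis) of the 12 tested acrosome probe sets on each array, by group, with points for replicates 1 and 2 and a line at the group mean. The shRNA arrays lie close together, while the control arrays differ widely for most genes, as for Spaca3 with 57.2 on control 1 and 8117 on control 2.

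In shMiwi against shCaf1, Izumo1, Spaca3 and Acrv1 fell on the deposited scale and no member rose. Izumo1 averaged 4039 ± 175 in shMiwi and 6144 ± 164 in shCaf1 (SD, n = 2 each), a log2 difference of -0.60 (SE 0.11, limma adjusted p = 0.0175), which is 1.52-fold lower in shMiwi. Spaca3 averaged 4588 ± 116 in shMiwi and 6588 ± 56.1 in shCaf1, a difference of -0.52 (SE 0.10, adjusted p = 0.0253), or 1.43-fold lower. Acrv1 averaged 12231 ± 223 in shMiwi and 16435 ± 1193 in shCaf1, a difference of -0.42 (SE 0.10, adjusted p = 0.0395), or 1.34-fold lower. These are 3 of the 12 tested probe sets, against 3.52% of all tested probe sets called lower, and 0 of 12 were called higher, against 3.81%. In bulk samples, fewer cells that carry a transcript and less of it per cell cannot be told apart.

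The remaining 9 tested probe sets did not pass. The brighter Acrbp probe set differed by -0.46 (95% interval -0.77 to -0.16, limma adjusted p = 0.0734), the other by -0.35 (-0.65 to -0.05, adjusted p = 0.139) and Dkkl1 by -0.28 (-0.51 to -0.05, adjusted p = 0.125). Spaca1 differed by -0.21 (-0.45 to 0.03, adjusted p = 0.261). For these 4 probe sets, as for the 3 called, both shMiwi arrays lay below both shCaf1 arrays on the deposited scale, which makes 7 of 12 against 25.3% of all tested probe sets, and for 0 of 12 did shMiwi lie wholly above, against 28.8%. With arrays matched on the hybridization controls, both shMiwi arrays lay above both shCaf1 arrays for 4 of 12 (Zpbp, Zpbp2, Dkkl1 and the dimmer Acrbp probe set), against 59.7%, and below them for 1 (the brighter Acrbp probe set), against 5.85%. On the deposited scale Zpbp differed by -0.04 (-0.26 to 0.17), Zpbp2 by 0.00 (-0.23 to 0.23), Acr by -0.08 (-0.53 to 0.37) and Spam1 by -0.08 (-0.42 to 0.25), all with overlapping arrays. The dim Spaca3 probe set differed by -0.05 (-0.98 to 0.88), an interval too wide to set it against the brighter one.

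The median of the 12 probe sets was -0.25, beside 0.02 over all tested probe sets, and all 12 differences were negative on the deposited scale, where 48.3% of all tested probe sets are, while on the hybridization scale 8 of the 12 turned positive. That scale moved the median of all tested probe sets to 0.38. Relative to this median Izumo1 stood at -0.59, Spaca3 at -0.50 and Acrv1 at -0.41, and Zpbp and Zpbp2 at -0.03 and 0.01. On the hybridization scale itself the values were -0.21 for Izumo1, -0.12 for Spaca3 and -0.03 for Acrv1, and none passed (limma adjusted p = 0.446, 0.663 and 0.927). There 0 of the 12 were called in either direction, beside 25.5% of all tested probe sets called higher and 0.955% called lower.

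The 3 calls were not stable. All were lost with each array centred on its median (limma adjusted p = 0.0534 for Izumo1, 0.082 for Spaca3 and 0.17 for Acrv1), without an intensity trend (0.161, 0.173 and 0.222), in the fit on all 6 arrays and without either shCaf1 array (0.0627 to 0.234), and Acrv1 was also lost without either shMiwi array (0.0675 and 0.0614).

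**Figure D2:**
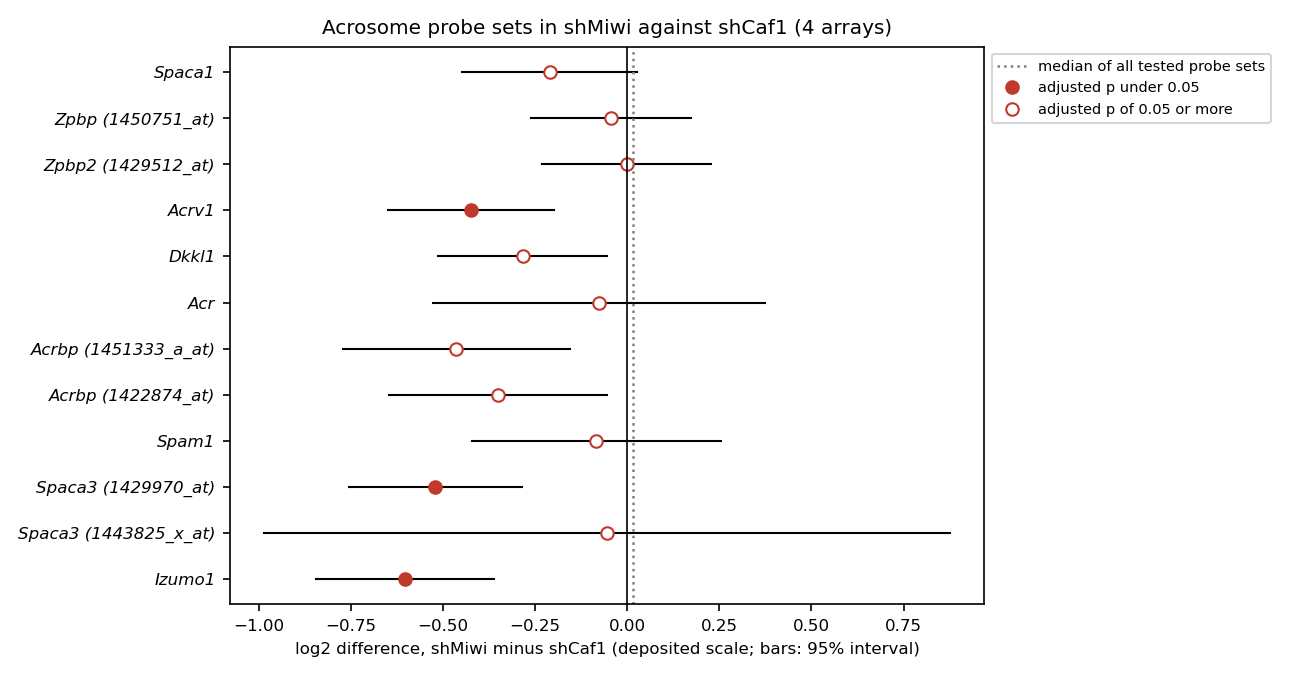
Log2 difference between shMiwi and shCaf1 for the 12 tested acrosome probe sets on the 4 shRNA arrays, with 95% intervals; filled points have a limma adjusted p under 0.05. Izumo1 (-0.60), Spaca3 (-0.52) and Acrv1 (-0.42) are filled, Zpbp and Zpbp2 lie near the dotted median of all tested probe sets, and the dim Spaca3 probe set has the widest interval.

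Several marker lists differed between shMiwi and shCaf1 on the deposited scale, where 3.81% of all tested probe sets were called higher and 3.52% lower. The 10 elongating spermatid markers summed to a signal of 116390 and 104460 in shMiwi, against 153320 and 162550 in shCaf1, and 6 of them were called lower and 0 higher. Of the 8 round spermatid markers 2 were called lower and 0 higher, with sums of 42813 and 45414 in shMiwi against 58259 and 58147 in shCaf1. The 4 Leydig cell markers found summed to 23954 and 23386 in shMiwi, against 19498 and 19853 in shCaf1, with 1 called higher. The 4 peritubular myoid markers summed to 4989 and 4669 in shMiwi, against 3608 and 3818 in shCaf1, with 2 called higher. The 7 Sertoli cell markers summed to 25062 and 22584 in shMiwi, against 26023 and 26290 in shCaf1, with 1 called higher. Of the Leydig markers, Cyp17a1 read 12922 and 12596 in shMiwi, against 10816 and 10956 in shCaf1, and Hsd3b1 read 3499 and 3721 in shMiwi, against 3535 and 3418 in shCaf1. On the deposited scale the sums of the spermatid lists thus read lower and those of the Leydig and myoid lists higher in shMiwi. The Sertoli sum also read lower, but most of it was Clu (20938.5 and 18286.9 in shMiwi, against 22862.5 and 23195.9 in shCaf1). Another Sertoli marker, Wt1, read 1206 and 1134 in shMiwi, against 697 and 662 in shCaf1. The median log2 difference of the Sertoli list was 0.17. The sums of the lists were not matched on the hybridization controls. That matching divides the shMiwi signals by 0.941 and 0.806 and the shCaf1 signals by 1.10 and 1.2. It raises shMiwi against shCaf1, so the lower spermatid sums depend on the scale. The part of these lists in the differences of the acrosome genes was not tested.

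The 250 bases before the start of transcription are shown for the 3 genes called lower in shMiwi and for Spaca1, the member with the largest mean difference from control on the deposited scale. They were searched on both strands for the cAMP response element (CRE), the site bound by the spermatid transcription regulator CREM, as its full form TGACGTCA and its core TGACG, which is part of the full form. Sequences are from RefSeq, build GRCm38.p6, written 5′ to 3′ on the strand of the gene, with CRE matches in capitals, from the first listed start where the table has several. Izumo1 lies on the plus strand (chr7:45621561-45621810), Spaca3 on the plus strand (chr11:80858113-80858362), Acrv1 on the plus strand (chr9:36692970-36693219) and Spaca1 on the minus strand (chr4:34050066-34050315).
Izumo1: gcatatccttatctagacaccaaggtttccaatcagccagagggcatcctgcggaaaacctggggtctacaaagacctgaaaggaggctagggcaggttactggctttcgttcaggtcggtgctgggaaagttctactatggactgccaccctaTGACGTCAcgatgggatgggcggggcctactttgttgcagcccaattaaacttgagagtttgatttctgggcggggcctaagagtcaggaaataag
Spaca3: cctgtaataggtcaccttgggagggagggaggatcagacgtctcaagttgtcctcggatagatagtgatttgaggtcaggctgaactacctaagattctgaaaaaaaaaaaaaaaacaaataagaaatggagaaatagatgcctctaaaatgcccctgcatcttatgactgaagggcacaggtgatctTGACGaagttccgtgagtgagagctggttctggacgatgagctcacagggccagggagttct
Acrv1: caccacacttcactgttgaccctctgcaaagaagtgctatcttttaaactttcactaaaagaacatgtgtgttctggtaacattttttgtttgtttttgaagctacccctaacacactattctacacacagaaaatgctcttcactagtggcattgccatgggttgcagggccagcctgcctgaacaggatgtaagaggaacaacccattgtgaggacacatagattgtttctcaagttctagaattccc
Spaca1: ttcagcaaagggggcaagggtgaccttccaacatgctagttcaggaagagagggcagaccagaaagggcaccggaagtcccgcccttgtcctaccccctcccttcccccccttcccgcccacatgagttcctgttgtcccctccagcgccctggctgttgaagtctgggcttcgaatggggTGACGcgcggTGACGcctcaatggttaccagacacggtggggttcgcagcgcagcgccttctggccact

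The Izumo1 sequence holds the full CRE from 96 to 89 bases before the start, a form found in 1.55% of 32851 mouse promoters of the same length. Spaca3 holds the core from 62 to 58 bases before the start, and Spaca1 holds it from 69 to 65 and again from 59 to 55 bases before it. Acrv1 holds neither form in this window. Of the 9 members with a promoter in the table (all but Acr), 5 hold the core (Acrbp, Izumo1, Spaca1, Spaca3 and Zpbp2), against 17.8% of all promoters. The core of the RFX site, GTTGCC, is in 2 of the 9 (Acrbp and Dkkl1), against 10.4%, and the TATA box TATAAA in 0 of the 9, against 12.4%. The genes called lower in shMiwi include one with the full form, one with the core and one with neither. A match describes the letters and not a bound site.

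Against control, 6 of the 12 tested probe sets rose in shMiwi, those of Spaca1, Zpbp, Acrv1, Zpbp2, Izumo1 and the dimmer one of Acrbp, and 1 fell, the dim probe set of Spaca3. All tested probe sets were called higher in 16.9% and lower in 26.4% of cases in the same limma fit on 6 arrays. On the log2 scale Spaca1 rose by 5.999 (SE 1.08, adjusted p = 0.011), Zpbp by 5.92 (SE 0.90, adjusted p = 0.00763) and Acrv1 by 5.61 (SE 0.96, adjusted p = 0.0097). Zpbp2 rose by 4.90 (SE 0.88, adjusted p = 0.0108), Izumo1 by 4.73 (SE 0.91, adjusted p = 0.013) and the dimmer Acrbp probe set by 1.22 (SE 0.34, adjusted p = 0.0373). These 6 were positive on the deposited scale, with quantile normalization, with median centring and on the hybridization scale. The call of the dimmer Acrbp probe set was lost with quantile normalization (limma adjusted p = 0.113), in the fit on the 4 arrays compared (0.127) and without either shCaf1 array (0.137 and 0.136). The dim Spaca3 probe set fell by 2.54 (SE 0.50, adjusted p = 0.0137) on the deposited scale but stood at 1.37 on the hybridization scale. Its mean log2 was 6.08 in shMiwi and 6.13 in shCaf1, under the filter cutoff of 6.551, against 8.62 in control. It thus passed the filter only through its control signals, and its fall follows in part from that.

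Dkkl1 (3.35, SE 1.86), Spaca3 (2.58, SE 2.13), Spam1 (2.28, SE 1.05) and the brighter Acrbp probe set (2.16, SE 0.98) did not pass in shMiwi on the deposited scale (limma adjusted p between 0.133 and 0.37). Acr differed by -0.85 (SE 0.40, adjusted p = 0.145) on the deposited scale, by 0.73 with median centring and by 4.002 on the hybridization scale. Both shMiwi arrays lay above both control arrays for 9 of the 12, against 30.6% of all tested probe sets, and below them for 2 (Acr and the dim Spaca3 probe set), against 40.3%. The median of the 12 probe sets was 2.96, beside -0.20 over all tested probe sets. On the hybridization scale these medians were 6.62 and 3.58, and 12 of 12 were called higher, as were 90.4% of all tested probe sets. Before log2, 16 was added to the matched signals, which for the tested members ran from 0.37 (Spaca1) to 18.0 (Acr) on control 1. The size of differences from control on this scale thus depends on that constant.

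In shCaf1, which shares its 2 control arrays with the comparison above, 6 of the 12 rose (Spaca1, Acrv1, Zpbp, Izumo1, Zpbp2 and the dimmer Acrbp probe set) and 1 fell, beside 15.5% and 26% of all tested probe sets. Spaca1 rose by 6.21 (SE 1.08, adjusted p = 0.011), Acrv1 by 6.04 (SE 0.96, adjusted p = 0.00908) and Zpbp by 5.96 (SE 0.90, adjusted p = 0.00838) in limma. Izumo1 rose by 5.34 (SE 0.91), Zpbp2 by 4.90 (SE 0.88) and the dimmer Acrbp probe set by 1.57 (SE 0.34), with adjusted p between 0.0104 and 0.0189. The dimmer Acrbp call was lost here too with quantile normalization (0.0606), in the fit on 4 arrays (0.0697) and without either shMiwi array (0.0763 and 0.0761). The dim Spaca3 probe set, which passed the filter only through its control signals, fell by 2.49 (SE 0.50, adjusted p = 0.0154) on the deposited scale. It stood at 1.13 on the hybridization scale. Dkkl1 (3.63), Spaca3 (3.10), the brighter Acrbp probe set (2.62), Spam1 (2.37) and Acr (-0.78) did not pass on the deposited scale (limma adjusted p between 0.0856 and 0.29). Acr stood at 0.79 with median centring and at 3.69 on the hybridization scale, where it passed (limma adjusted p = 0.00127). On the deposited scale both shCaf1 arrays lay above both control arrays for 9 of the 12, against 30% of all tested probe sets, and below them for 2, against 40.9%. The median was 3.36 beside -0.25 over all tested probe sets, and on the hybridization scale 11 of 12 were called higher, as were 87.6% of all tested probe sets.

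**Figure D3:**
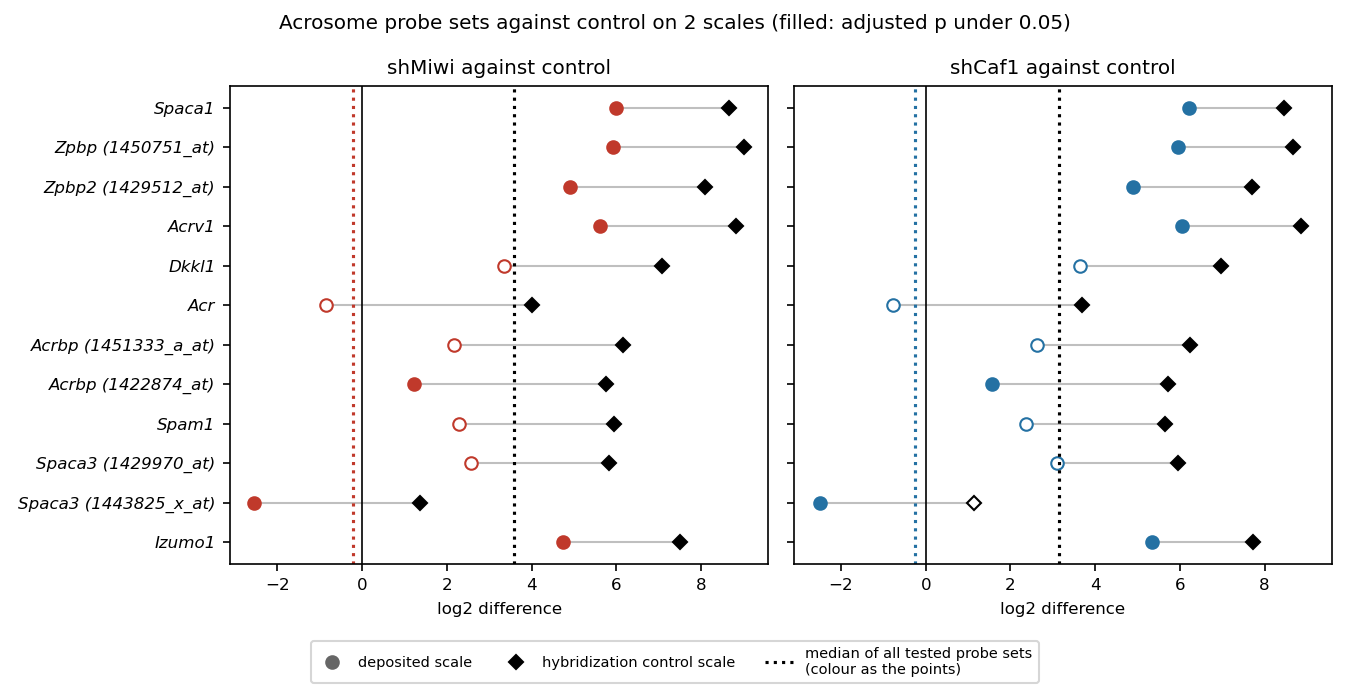
Log2 differences from control of the 12 tested acrosome probe sets in shMiwi (left) and shCaf1 (right), as circles on the deposited scale and diamonds on the hybridization control scale, filled where the limma adjusted p was under 0.05; dotted lines are the medians of all tested probe sets on each scale. Acr and the dim Spaca3 probe set are negative on the deposited scale and positive on the other.

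The size of these differences depended on which control array was used. Spaca1 in shMiwi was 7.66 above control 1 and 4.34 above control 2 on the log2 scale, Zpbp 7.27 and 4.57, Acrv1 7.06 and 4.17, Zpbp2 6.21 and 3.59, and Izumo1 6.11 and 3.36. These 5 lay far above each control array. Dkkl1 was 6.31 above control 1 but 0.39 above control 2, and Spaca3 was 5.97 above control 1 but at -0.82 against control 2. Spam1 differed more from control 2, with 0.67 against control 1 and 3.89 against control 2. In shCaf1, Spaca1 was 7.87 above control 1 and 4.55 above control 2, Acrv1 7.48 and 4.59, Zpbp 7.31 and 4.62, Zpbp2 6.21 and 3.59, and Izumo1 6.71 and 3.96. Dkkl1 in shCaf1 was 6.59 above control 1 and 0.67 above control 2, Spaca3 6.49 above control 1 and at -0.30 against control 2, and Spam1 0.76 and 3.98 above them. With control left at 1 array, the fit takes its spread from the shRNA arrays alone. Between replicates the members differed by a median absolute log2 difference of 0.138 in shMiwi and 0.122 in shCaf1, against 2.82 in control. Calls made without 1 control array therefore leave out the spread between the control arrays. With either array of the shRNA group compared left out, the calls against control were lost.

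The within-array position showed the same split. Taking 1 probe set per gene, 8 of the 10 members lay at or above the 90th percentile on each shRNA array, against 1 of 10 on control 1 (Acr) and 4 of 10 on control 2 (Dkkl1, Spaca3, Acr and Acrbp), a threshold chosen after the values were seen. The median percentile of the 10 was 97.2 and 97.1 in shMiwi, 97.8 and 97.5 in shCaf1, and 22.1 and 79.5 in control. The median absolute log2 difference between replicates over the tested probe sets of the members was 0.138 in shMiwi, 0.122 in shCaf1 and 2.82 in control, beside 0.218, 0.185 and 1.28 over all tested probe sets. Acr and Spam1 were the genes under the 90th percentile on the shRNA arrays, between 81.7 and 87.4.

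**Figure D4:**
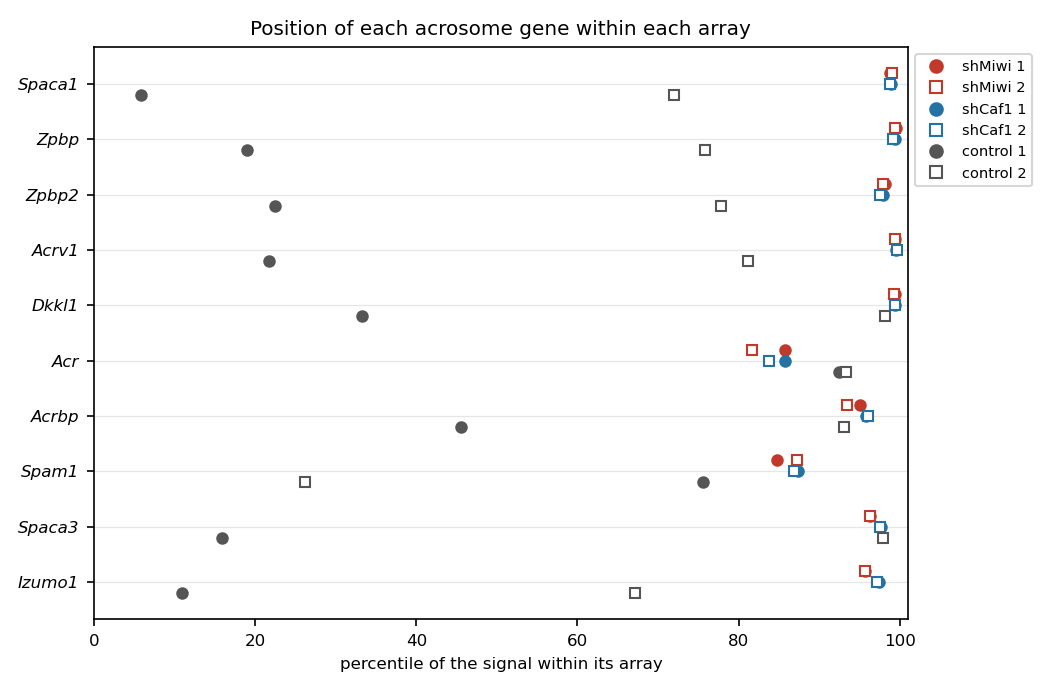
Percentile of each acrosome gene's signal within each array, 1 probe set per gene, with circles for replicate 1 and squares for replicate 2. The shRNA arrays lie between percentiles 81.7 and 99.6, control 1 spreads from 5.89 to 92.5 and control 2 from 26.2 to 98.1.

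Values of the marker lists against control are given on the deposited scale. There 16.9% of all tested probe sets were called higher and 26.4% lower in shMiwi, and 15.5% and 26% in shCaf1. The 10 elongating spermatid markers summed to 116390 and 104460 in shMiwi, 153320 and 162550 in shCaf1, and 5602 and 641100 in control, with 1 called higher and 1 lower in shMiwi and 2 higher and 1 lower in shCaf1. Prm2, a protamine of elongating spermatids, read 19903 and 18090 in shMiwi, 26546 and 26216 in shCaf1, and 110 and 237281 in control. The 8 round spermatid markers summed to 42813 and 45414 in shMiwi, 58259 and 58147 in shCaf1, and 5319 and 56261 in control, with 2 called higher in shMiwi and 3 in shCaf1. The 8 pachytene spermatocyte markers, which include Piwil1, had a median percentile of 99.2 and 99.2 in shMiwi, 98.9 and 99.0 in shCaf1, and 41.5 and 76.3 in control, and 6 were called higher and 1 lower in each shRNA group. The elongating list stood at 98.7 and 98.5 in shMiwi and 99.5 and 99.5 in shCaf1. Transcripts of other cell types thus ranked about as high, as did the Leydig gene Cyp17a1 (99.5 and 99.5 in shMiwi). The 4 Leydig cell markers had a median percentile of 96.5 and 96.4 in shMiwi, 95.5 and 95.4 in shCaf1, and 54.5 and 89.2 in control, with 3 called higher in shMiwi and 2 in shCaf1. The 5 endothelial markers summed to 558 and 499 in shMiwi, 501 and 529 in shCaf1, and 5812 and 2289 in control, with 2 called lower in shMiwi and 3 in shCaf1. The part of these lists in the rises of the acrosome genes was not tested.

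Other genes of acrosome assembly, of the acrosomal contents and of gamete fusion were read from a list of 62, of which 59 had a probe set and all 59 passed the filter. In shMiwi against shCaf1, 13 of the 59 fell on the deposited scale and 0 rose, with a median of -0.21, beside 3.52% lower, 3.81% higher and a median of 0.02 over all tested probe sets. Matching on the added RNAs turned the counts, with 1 of the 59 called lower and 13 called higher, beside 0.955% and 25.5% of all, and of the 13 falls that of Prss39 alone passed there. Prss39, a testis serine protease, fell by 1.00 (SE 0.14, limma adjusted p = 0.00757), with signals of 1626 and 1328 in shMiwi against 2867 and 3063 in shCaf1. Lyzl4, a lysozyme-like protein, fell by 0.68 (SE 0.12, adjusted p = 0.0179), and Crisp2, a cysteine-rich secretory protein of the acrosome, by 0.65 (SE 0.09, adjusted p = 0.00842). Matched on the hybridization controls, Prss39 stood at -0.61 (adjusted p = 0.025), while the calls of Lyzl4 (-0.29, adjusted p = 0.315) and Crisp2 (-0.25, adjusted p = 0.257) were lost. In the fit on all 6 arrays no tested probe set was called, so all 13 falls were lost, that of Prss39 included. The calls of Prss39, Lyzl4 and Crisp2 were also lost without an intensity trend. The largest values upward were Dcst1, a partner in gamete fusion, at 0.69 (adjusted p = 0.336) and Cd46, a complement regulator of the acrosomal membrane, at 0.43 (adjusted p = 0.198). They did not pass on the deposited scale and did on the hybridization scale (1.01, adjusted p = 0.0256, and 0.82, adjusted p = 0.00559). Dcst1 was dim, at 107.9 and 100.1 in shMiwi against 98.3 and 32.5 in shCaf1, so its difference came mostly from shCaf1 replicate 2.

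By class, on the deposited scale, where 3.52% of all tested probe sets were called lower, 7 of the 22 matrix and surface genes fell, 3 of the 4 chaperones of sperm surface proteins, 2 of the 7 proteases and inhibitors, 1 of the 8 gamete fusion genes, 0 of the 6 exocytosis genes and 0 of the 12 acrosome biogenesis genes. The chaperones were Pdilt (-0.61), Calr (-0.50) and Calr3 (-0.48), while Clgn did not pass. The biogenesis genes had a median of 0.27, and 9 of the 12 were positive on the deposited scale. Of these 12, 8 were called higher on the hybridization scale, beside 25.5% of all, and of the other classes 4 of 22 matrix and surface genes and 1 of 8 fusion genes. The difference between classes was not tested.

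**Figure D5:**
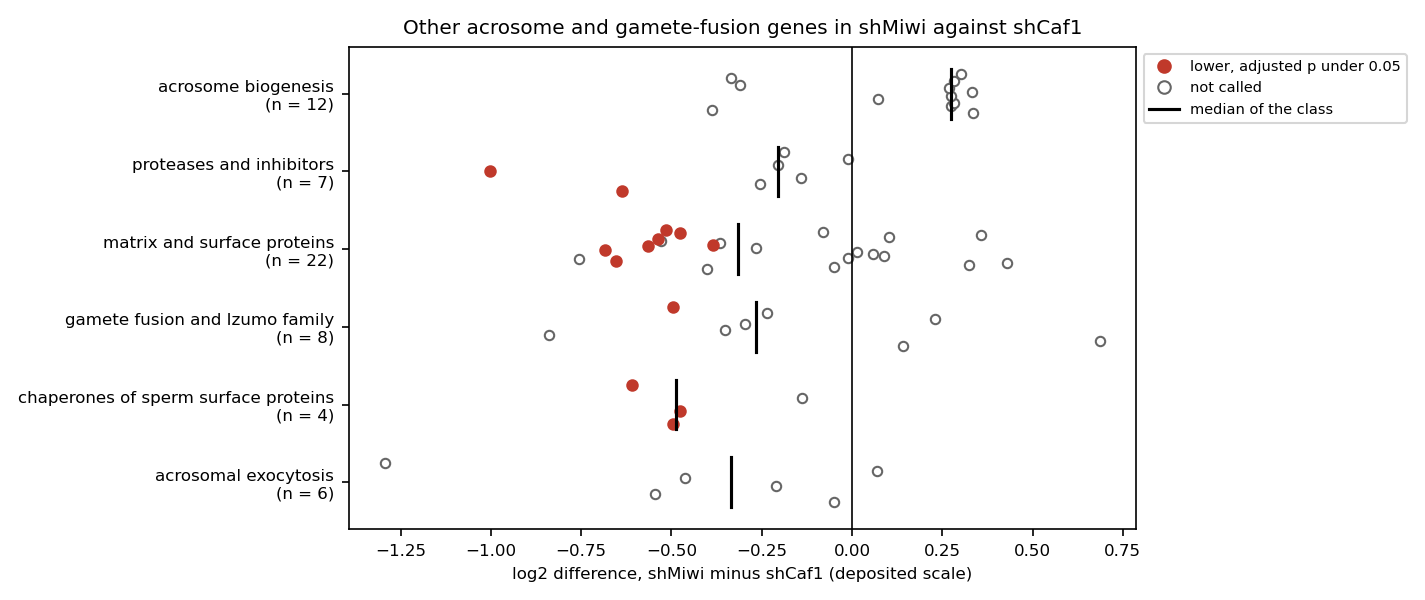
Log2 difference between shMiwi and shCaf1 of the 59 other acrosome and gamete-fusion genes by class, 1 probe set per gene, filled where lower at a limma adjusted p under 0.05, with a bar at the class median. The 13 filled genes lie in the matrix, chaperone, protease and fusion classes, and the biogenesis class has its median at 0.27.

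Against control, 20 of the 59 rose and 6 fell in shMiwi, and 18 rose and 4 fell in shCaf1, on the deposited scale. Of all tested probe sets 16.9% were called higher and 26.4% lower in shMiwi, and 15.5% and 26% in shCaf1. On the hybridization scale 57 of the 59 were called higher in each group, as were 90.4% and 87.6% of all. Eqtn, a membrane protein of the acrosome, rose by 6.32 in shMiwi and 7.08 in shCaf1, Spesp1, a protein of the equatorial segment, by 6.27 and 6.16, and Izumo3, a relative of Izumo1, by 5.92 and 6.21, with limma adjusted p between 0.00374 and 0.00794. Matched on the added RNAs, Eqtn stood at 7.72 and 8.08, Spesp1 at 8.76 and 8.26 and Izumo3 at 8.63 and 8.53. Eqtn read 2375 and 3935 in shMiwi, 4722 and 5676 in shCaf1, and 26.8 and 18.4 in control, so it was dim on both control arrays. The largest falls on the deposited scale were the synaptotagmin Syt8 at -4.82 in shMiwi and -3.53 in shCaf1, Dcst2, a partner of Dcst1, at -3.61 and -2.77, and the complexin Cplx2 at -3.49 and -2.94. Syt8 and Dcst2 were dim on the shRNA arrays, with signals of 21.9 to 110.4 and 35.7 to 114.5. Their mean log2 was 5.34 and 6.05 in shMiwi, under the filter cutoff of 6.551, and 6.63 and 6.89 in shCaf1. In control it was 10.16 and 9.66, so both passed the filter mainly through control, and their falls follow in part from that. The probe sets of Dcst2 and Cplx2 are of kinds whose probes may also match other transcripts. On the hybridization scale Syt8 stood at -0.11 and 0.90, Dcst2 at 0.81 and 1.33 and Cplx2 at 1.56 and 1.73. Of the falls, 5 of 6 in shMiwi and 4 of 4 in shCaf1 turned positive on that scale.

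The genes whose values over the 6 arrays lay closest to the median profile of the 10 members, by Euclidean distance of log2 values among 14229 other named genes, were Pde1a (distance 0.39), Oga (0.46), Kif2b (0.49), Bcas2 (0.54) and Ddx20 (0.70). Pde1a, a calmodulin-dependent phosphodiesterase, read 5495 and 5930 in shMiwi, 6879 and 7054 in shCaf1, and 104 and 581 in control. The members themselves lay at distances between 0.45 (Zpbp2) and 6.86 (Acr) from their median, so Acr and Spam1 (6.29) were far from the others, and Zpbp2 and Izumo1 (1.19) close to it.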

How the data were processed

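Labelled RNA of cells sorted as elongating spermatids was hybridised to 3' arrays. The authors deposited linear signal intensities, 1 for each probe set on each array, made with MAS5 per the submitters' processing notes, and its values show that the authors scaled each array to a 2% trimmed mean of 500. No version, genome build or detection call is given in the sources used here.

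Signals were taken to log2 after adding 16, which understates changes of dim probe sets. Tests excluded 64 Affymetrix controls and took those probe sets whose mean log2 over 6 arrays exceeded the 40th percentile. Probe sets were named from the platform annotation (34958 name 1 gene, 932 several, 9211 none), and all 14 member probe sets matched the RefSeq gene ID and symbol.

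Comparisons used limma 3.58.1 (R 4.3.3; lmFit, then eBayes with an intensity trend) and Benjamini-Hochberg adjustment over all tested probe sets, with calls at an adjusted p under 0.05. Against control the fit held all 6 arrays (3 residual degrees of freedom), whose shared spread is too small for the control arrays. shMiwi was set against shCaf1 on the 4 shRNA arrays (2 residual degrees of freedom). An exact permutation test of 2 against 2 arrays cannot go below p = 0.333 and was not used. A second scale matched arrays on the mean of 18 probe sets of the added hybridization RNAs, with the 16 added after the matching. Matched control signals were small, so differences from control on this scale depend on the 16. Other constants, filters, scalings, variance models, a replicate block and leaving out each array were run, and the limma step was tested on simulated data. The 10 members were named throughout, and of the other acrosome genes up to 3 called rises and falls per comparison, or the 2 largest values where none was called; Pdilt, Calr, Calr3, Clgn and the marker genes shown were added after their values were seen. For genes with more than 1 probe set, the brightest on average stood for the gene. Hook1 is in both the biogenesis and the elongating marker list. Members and lists were chosen with earlier results of these data known.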

Additional observations from a re-analysis of the deposited data

How the results depend on the processing

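Against control, 7 members were called in each shRNA group, with 11687 of all probe sets in shMiwi and 11205 in shCaf1. On the hybridization scale 12 members were called in shMiwi and 11 in shCaf1 against control, with 24458 and 23679 of all probe sets (24432 and 23669 higher). Without a filter all calls against control were 18076 and 17244, and on the 4 arrays of the groups compared 6632 and 5941. The split of all calls against control, 4559 higher and 7128 lower in shMiwi and 4186 and 7019 in shCaf1, became 5537 and 3973, and 5293 and 3753, with quantile normalization, and 9836 and 2834, and 9314 and 2580, with median centring. Between shMiwi and shCaf1, 3 members and 1981 probe sets were called. These became 1 and 568 without a filter, 0 and 1302 with median centring, 0 and 7145 on the hybridization scale (6887 higher and 258 lower, beside 1030 and 951 on the deposited scale), 0 and 15 without an intensity trend, 0 and 0 in the fit on all 6 arrays (6598 at an unadjusted p under 0.05 in the 4-array fit), and 0 and 680 by size alone (at least 2-fold apart with no overlap).

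Leaving out 1 array gave between 0 and 12 member calls in shMiwi and between 0 and 11 in shCaf1 against control, with 0 to 22700 and 0 to 22675 of all probe sets, and between 0 and 4 members and 276 and 3878 probe sets between the shRNA groups. All calls of shMiwi against control were 0 without either shMiwi array, 6664 and 6658 without shCaf1 replicate 1 and 2, 21538 without control replicate 1 and 22700 without control replicate 2. Those of shCaf1 were 0 without either shCaf1 array, 5899 and 5896 without shMiwi replicate 1 and 2, 21205 without control replicate 1 and 22675 without control replicate 2. Between the shRNA groups they were 3878 without shMiwi replicate 1, 794 without shCaf1 replicate 1 and 276 without shCaf1 replicate 2. A group left with 1 array is assumed to vary like the others, which understates the spread where that group is control. The cause of these changes was not tested.

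The replicate number as a block gave 6 members and 5458 probe sets between shMiwi and shCaf1, and 6 and 7 members and 10400 and 9851 probe sets for shMiwi and shCaf1 against control. Deviations of same-numbered arrays correlated at 0.18 between shMiwi and shCaf1, 0.00396 between shMiwi and control and 0.06 between shCaf1 and control, and the labels give the numbers no shared mouse, litter or day, so the arrays were not treated as pairs.

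Between shMiwi and shCaf1, differences that turned positive on the hybridization scale were those of Dkkl1 (0.11), Spam1 (0.31), the dimmer Acrbp probe set (0.0456), Zpbp2 (0.396), Spaca1 (0.19), the dim Spaca3 probe set (0.24), Acr (0.32) and Zpbp (0.35). With quantile normalization Zpbp2 (0.17), Spaca1 (0.00800) and Zpbp (0.36) turned, and with median centring Zpbp2 (0.013). Leaving out 1 array gave Spam1 -0.236 to 0.069, Zpbp2 -0.0381 to 0.0348, the dim Spaca3 probe set -0.59 to 0.48 and Acr -0.352 to 0.20. None of these was called. Against control, Spaca3 ranged from -0.82 (without control replicate 1) to 5.97 (without control replicate 2) in shMiwi and from -0.30 to 6.49 in shCaf1, and Acr turned to 0.73 and 0.79 with median centring and to 4.002 and 3.69 on the hybridization scale, and the dim Spaca3 probe set to 1.37 and 1.13 on that scale. Dcst2 (0.81 and 1.33) and Cplx2 (1.56 and 1.73) turned on it in both groups and Syt8 (0.90) in shCaf1. With no detection calls, whether a dim probe set was above background could not be told here.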

Other observations

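Most of the other acrosome genes were bright on the shRNA arrays. Of the 59, 32 and 33 lay at or above the 90th percentile in shMiwi and 37 and 37 in shCaf1, against 13 and 29 in control. Their median percentile was 92.4 and 91.3 in shMiwi, 93.0 and 93.4 in shCaf1, and 61.7 and 89.9 in control. On the deposited scale Prss39 was brighter on control 2 than on any shRNA array, and on the hybridization scale both control arrays lay below all shRNA arrays. It read 1626 and 1328 in shMiwi, 2867 and 3063 in shCaf1, and 241 and 5748 in control. Crisp2 read 12937 and 13571 in shMiwi, 20527 and 21164 in shCaf1, and 522 and 152 in control. Within the control arrays it stood at percentiles 64.1 and 41.4, while Eqtn stood at 4.47 and 6.82.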
